A study of Mus musculus with 18 samples.

Results

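The response of LLC cells, the mouse Lewis lung carcinoma line, to sildenafil is described here across all genes. It was taken from 6 of the 18 RNA sequencing libraries of the study, chosen by their labels: 3 from LLC cells given the solvent DMSO and 3 from LLC cells given 100 µM sildenafil citrate, both for 48 hours. The other 12 libraries come from 4T1 mammary and MC38 colon carcinoma cells given DMSO or the same dose for 24 hours. All groups carry the genotype label W.T and were grown in medium with 10% serum, DMEM for LLC and MC38 and RPMI 1640 for 4T1. The title of the series names PDE5a, NPC1 and cholesterol trafficking, so the LLC comparison asks which genes, those of cholesterol handling among them, differ after sildenafil. Each line is a single cultured line. The labels leave unsaid whether each library had its own culture dish, and the p-values therefore rest on a spread among libraries that could be technical alone.

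Sildenafil blocks the catalytic site of PDE5, a phosphodiesterase that breaks down cyclic GMP, and cyclic GMP acts through protein kinase G, ion channels and other phosphodiesterases. NPC1 and NPC2 carry cholesterol out of late endosomes and lysosomes. When little cholesterol reaches the endoplasmic reticulum, SREBP transcription factors are cut and raise the genes of sterol synthesis and uptake, whereas oxysterols act on LXR receptors, which raise the genes of cholesterol efflux.

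The LLC libraries held 26348659 to 32129786 expected counts each. CPM, read counts relative to library size, are scaled below to TMM-adjusted library sizes within LLC. Of 14 lung epithelial markers, 8 had no count in any LLC library, among them the surfactant genes Sftpb and Sftpc and the lung transcription factor Nkx2-1, and the E-cadherin gene Cdh1 averaged 0 CPM in controls and 0.0114 CPM after sildenafil. Of the 3 markers that could be tested, Napsa, an aspartic protease, was at 5.35, 5.58 and 4.72 CPM in controls and 7.90, 6.88 and 8.95 CPM after sildenafil (0.60 ± 0.12), and Aqp5, a water channel, was near 1 CPM and not called. Hopx, a homeobox cofactor, was at 6.46, 6.59 and 7.22 CPM in controls and 5.54, 4.25 and 3.98 CPM after sildenafil (-0.56 ± 0.14), a call lost without sildenafil 2 or sildenafil 3. Transcripts of these lung markers were thus few and low. Vim, the mesenchymal intermediate filament gene, stood at 2015, 2035 and 2222 CPM in the control libraries. The epithelial keratin gene Krt8 was also present there, at 208.8, 206.6 and 231.0 CPM. The kit named in the labels captures polyadenylated RNA, yet misc_RNA genes took 4.66% to 7.26% of the LLC counts. They took 6.83% to 9.67% in MC38 and 0.00115% to 0.00241% in 4T1. Control library 3 stood apart from the other controls: the noncoding transcript Gm26917 took 30050, 21240 and 9782 CPM in controls 1 to 3 and 13870, 7171 and 5835 CPM in the sildenafil libraries. Polr2a, the largest subunit of RNA polymerase II, was at 160.3, 140.0 and 57.6 CPM in controls and at 78.2, 47.9 and 34.3 CPM after sildenafil. For both transcripts control 3 lay among the sildenafil libraries, and neither was called (adjusted p = 0.198 and 0.195). Library pairs were also compared over the counts of the genes tested, Gm26917 and Polr2a included, leaving out genes with few counts in a pair. Chi-square per degree of freedom was 22 to 29.2 between control 3 and the sildenafil libraries. It was 45.1 to 53.7 between control 3 and the other controls. Abundant transcripts weigh most in chi-square, so likeness beyond Gm26917 and Polr2a was not tested by it. By correlation of log2 CPM, control 3 lay slightly nearer to the other controls (0.9937 or more) than to the sildenafil libraries (0.9932 or less). No targeted gene checks the labels in this design, so whether control 3 is labelled correctly was not tested, and values without it are given where they differ.

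**Figure D1:**
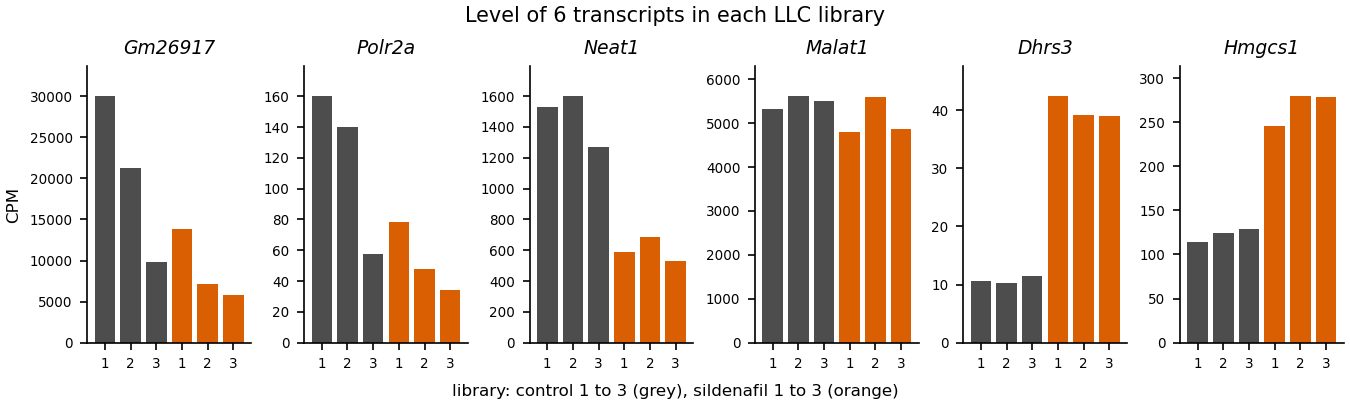
CPM of 6 transcripts in each LLC library, with the 3 control libraries in grey and the 3 sildenafil libraries in orange. Control 3 lies among the sildenafil libraries for Gm26917 and Polr2a, while Neat1, Dhrs3 and Hmgcs1 separate the groups and Malat1 does not.

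Sildenafil changed a large share of the LLC transcriptome, mostly by small amounts. Of 13561 genes tested, 2046 were higher (15.1%) and 1656 lower (12.2%), together 27.3%, by edgeR's quasi-likelihood test at a Benjamini-Hochberg adjusted p under 0.05. At least 2-fold changes were seen in 105 of the higher and 168 of the lower genes, and the median log2 fold change of all genes was -0.01. Values below are log2 fold changes, sildenafil over control, ± SE over 3 against 3 libraries. Counts of list members are to be read beside the 15.1% higher and 12.2% lower of all genes tested. The counts depended on single libraries. Without control 3 they were 3079 higher and 2915 lower, without control 1 they were 1339 and 960, and without control 2 they were 1490 and 997. Without sildenafil 2 the fit called 1226 genes higher and 773 lower, and without sildenafil 3 it called 1127 and 714. No gene called in both the full and a reduced fit changed sign.

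Large rises were seen in genes of several functions. Masp1, a protease of the lectin complement pathway, rose by 1.22 ± 0.12, and Colec12, a collectin scavenger receptor, by 1.21 ± 0.05. The proteases of the classical pathway were looked up after these values were seen: C1s1 was higher by 0.80 ± 0.05, and its partner C1ra by 0.19 ± 0.06 (adjusted p = 0.0382), a call lost without control 2, sildenafil 1 or sildenafil 3.

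Dhrs3 (chr4:144892827-144928209 in GRCm38), which reduces retinaldehyde to retinol, rose from 10.5, 10.3 and 11.5 CPM to 42.5, 39.1 and 39.0 CPM (1.90 ± 0.07, adjusted p = 4.16e-07). Other genes of retinoid handling were then looked up: Rdh10, which makes retinaldehyde from retinol, was higher by 1.15 ± 0.07, Rdh11 by 0.54 ± 0.07 and the retinoid X receptor Rxra by 0.41 ± 0.05. Bmf, a BH3-only protein that promotes apoptosis, rose from 1.73, 2.43 and 2.99 CPM to 9.10, 9.16 and 10.4 CPM (2.00 ± 0.17). Tgfbi, a secreted matrix protein named for its induction by TGF-beta, went from 10.5, 11.1 and 10.4 CPM to 39.2, 34.7 and 38.0 CPM (1.81 ± 0.07). In none of these genes did the groups overlap, which for Dhrs3, Bmf and Tgfbi was a condition of being named among the largest rises. The genes among the 15 largest rises also included Angpt1 (angiopoietin 1, 1.79), the small proteoglycan gene Ogn (1.62), the selenium carrier Selenop (1.56), Cpt1a (1.45), Pde4b (1.37), the proteoglycan Vcan (1.2995), the sterol enzyme Idi1 (1.21) and the small GTPase gene Gem (1.22).

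The largest rises and falls were taken from called genes with a mean of at least 5 CPM and no overlap between groups. Genes with Gm, Rik or clone-style symbols were left out. Among the rest, the largest fall was in Tenm4 (chr7:96171246-96911093), a transmembrane teneurin involved in cell adhesion and axon guidance. It was at 131.8, 137.0 and 105.4 CPM in controls and at 34.8, 33.7 and 33.2 CPM after sildenafil (-1.88 ± 0.10, adjusted p = 1.29e-05). Neat1 (chr19:5824708-5845478), the noncoding RNA that scaffolds nuclear paraspeckles, went from 1528, 1602 and 1271 CPM to 587.9, 686.5 and 531.9 CPM (-1.28 ± 0.12, adjusted p = 0.000369). Malat1, its neighbour and another nuclear-retained RNA, had 5319 to 5621 CPM in controls and 4806 to 5600 CPM after sildenafil, with overlapping groups (-0.11 ± 0.08, adjusted p = 0.305). Further falls came from the neuronal pentraxin Nptx1 (-1.39), Soat2, an enzyme that esterifies cholesterol (-1.34), the endocytic receptor Lrp2 (-1.33), the cationic amino acid transporter Slc7a3 (-1.22), the secreted carbonic anhydrase Car6 (-1.22), Pik3c2b (-1.15), Trib3 (-1.11), Cth (-1.10), Pycr1 (-1.06), Eid3 (-1.05) and the CDK inhibitor Cdkn1a (-1.05). The histone gene Hist2h3c1 (-1.75), whose reads near-identical copies share, and the transcription factor Creb5 (-1.49) were also in this set. Creb5 lost its call without control 2, sildenafil 2 or sildenafil 3, and Trib3 without sildenafil 2 (-1.06, adjusted p = 0.0539).

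**Figure D2:**
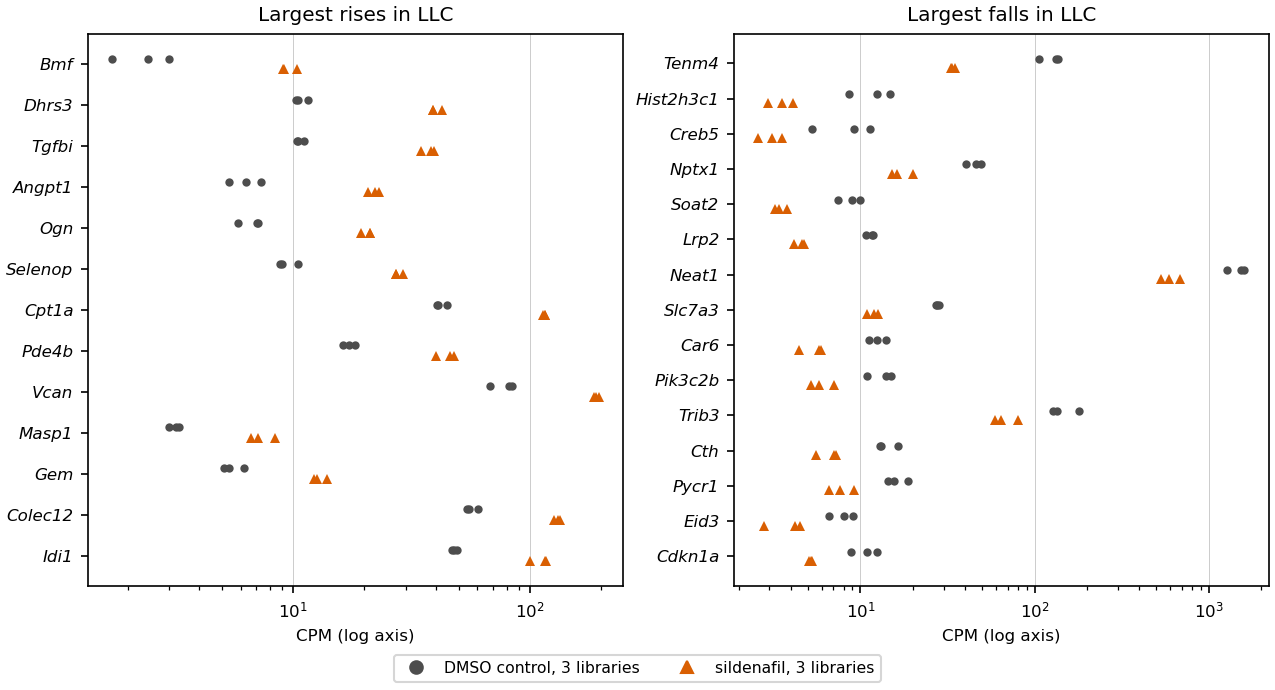
CPM on a log axis in each LLC library for 13 of the 15 genes with the largest rise (left) and the 15 with the largest fall (right) among genes with a mean of at least 5 CPM, an adjusted p under 0.05 and no overlap between groups. Genes with Gm, Rik or clone-style symbols were left out. Grey circles are the 3 control libraries and orange triangles the 3 sildenafil libraries, and Bmf and Tenm4 head the panels.

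All 20 cholesterol synthesis enzymes were tested and all 20 were higher with a median log2 fold change of 0.80, against a median of -0.01 over all genes. Their summed level went from 1229 to 1304 CPM in the controls to 2139 to 2443 CPM in the sildenafil libraries. Hmgcs1, the enzyme that supplies HMG-CoA for sterols, was at 113.6, 123.8 and 128.8 CPM in controls and 245.5, 279.8 and 278.1 CPM after sildenafil (1.13 ± 0.07, adjusted p = 5.80e-06). Idi1, which isomerises the isoprenoid unit of the pathway, went from 47.8, 47.0 and 49.1 CPM to 100.1, 115.2 and 116.7 CPM (1.21 ± 0.06). The groups did not overlap for either gene, which for Idi1 was a condition of being named among the largest rises. Pmvk, a mevalonate pathway kinase, had the smallest rise (0.37), and Acat2, which condenses acetyl-CoA at the entry of the pathway, rose by 0.83 ± 0.08.

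The element CACCCCAC, an imperfect form of the sterol regulatory element, was sought on both strands in the 250 bases before each gene's start in RefSeq (GRCm38.p6), because SREBP factors bind such letters. It was found in 2.98% of 27025 genes and in 2 of the 15 cholesterol enzymes with a window, Hmgcs1 and Acat2. All 15 enzymes with a window were higher, with or without the letters. No match lay in the 10 SREBP factor, sensor and uptake genes or the 12 fatty acid synthesis genes with a window. Of those 10, 3 were higher and 2 lower, and of those 12, 9 were higher and 1 lower. Both matches are shown on the strand of the gene, with the element in capitals, and start 136 and 181 bases before the gene.
Hmgcs1, chr13:119690185-119690252, plus strand: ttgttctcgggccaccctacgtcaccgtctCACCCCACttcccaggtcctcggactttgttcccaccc
Acat2, chr17:12960869-12960936, minus strand: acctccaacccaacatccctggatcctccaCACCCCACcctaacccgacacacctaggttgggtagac

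Of 12 tested SREBP factors, sterol sensors and uptake genes, 5 were higher and 3 lower. Insig1, which retains the SREBP escort in the endoplasmic reticulum and is itself an SREBP target, went from 162.3, 164.7 and 176.2 CPM to 322.8, 345.2 and 349.0 CPM (1.01 ± 0.05). The sterol carrier Stard4 rose by 0.45 ± 0.09, the escort Scap by 0.30 ± 0.05 and Srebf1 by 0.27 ± 0.05. Srebf2, the factor most tied to cholesterol synthesis, was at 148.5, 139.4 and 108.1 CPM in controls and 145.2, 128.4 and 127.3 CPM after sildenafil, with overlapping groups (0.02 ± 0.13, adjusted p = 0.929). The protease gene Mbtps2 (-0.41), the lipoprotein receptor Lrp8 (-0.25) and the HDL receptor Scarb1 (-0.14) were lower. Each of these 3 calls was lost without sildenafil 2 or sildenafil 3, those of Mbtps2 and Scarb1 also without control 1 or control 2, and that of Scarb1 without sildenafil 1.

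Among 21 tested genes of endolysosomal cholesterol trafficking, 11 were higher and 1, Osbp, was lower (median 0.22). Osbp, a sterol transfer protein, lost its call when any library but control 3 was left out. Npc1 stood at 33.9, 32.5 and 30.6 CPM in controls and 40.4, 35.1 and 37.3 CPM after sildenafil, with no overlap but a narrow gap (0.22 ± 0.07, adjusted p = 0.0350). Its call was lost without control 2, sildenafil 1 or sildenafil 3 and with DESeq2. Npc2, the lumenal partner of NPC1, rose further, from 117.2, 113.8 and 125.7 CPM to 165.7, 173.7 and 167.1 CPM (0.51 ± 0.05, adjusted p = 0.000131). Lipa, the acid lipase that frees cholesterol from LDL esters, rose by 0.65 ± 0.06, Laptm4a by 0.61 ± 0.07, and the lysosomal membrane glycoproteins Lamp2 and Lamp1 by 0.37 ± 0.04 and 0.34 ± 0.04.

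Of 8 tested LXR targets and efflux genes, 4 were higher and none lower. Abca1 (chr4:53030787-53159895), the transporter that loads cholesterol onto apolipoproteins, went from 5.56, 5.46 and 5.63 CPM to 13.2, 11.8 and 12.7 CPM (1.176 ± 0.09, adjusted p = 1.92e-05). The sildenafil libraries all lay above the controls, which differed little among themselves. Lpcat3, a phospholipid acyltransferase, rose by 0.25 ± 0.05, and Soat1, which esterifies cholesterol, by 0.33 ± 0.06, opposite to Soat2. Nr1h3, which encodes LXR-alpha, was near 1 CPM and its call (0.65 ± 0.19) was lost when control 1, control 2, sildenafil 2 or sildenafil 3 was left out. Abcg1, the other main sterol exporter, had no count in the 6 libraries.

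Genes of both fatty acid synthesis and fatty acid oxidation were among those that rose. Of 15 synthesis and desaturation genes 11 were higher and 1, the malic enzyme Me1, was lower (median 0.36). Fasn, the fatty acid synthase, was at 464.9, 489.6 and 444.2 CPM in controls and 813.2, 851.3 and 886.3 CPM after sildenafil (0.87 ± 0.06). Elovl6, an elongase, rose by 0.84 ± 0.07 and the desaturase Fads2 by 0.80 ± 0.05. Of 34 tested PPAR factors and oxidation genes 11 were higher and 3 lower (median 0.11), and the rises were uneven. Cpt1a (chr19:3322334-3385733), which admits long-chain fatty acids to mitochondria, went from 44.7, 40.9 and 40.3 CPM to 112.9, 115.6 and 115.4 CPM (1.45 ± 0.05, adjusted p = 4.16e-07). Angptl4, a secreted inhibitor of lipoprotein lipase, went from 1.45, 1.53 and 1.92 CPM to 4.55, 6.05 and 6.61 CPM (1.81 ± 0.18), and the lipid droplet coat gene Plin2 rose by 0.56 ± 0.06. The thioesterase Acot2 fell by 0.68. Ppara and Pparg were too low to be tested, Ppard was not called (-0.54 ± 0.19, adjusted p = 0.0714), and Pdk4, another PPAR target, was not called either (0.18 ± 0.19, adjusted p = 0.498). Ppard was called lower with DESeq2, with all 18 libraries in 1 fit and without control 3.

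Lysosomal genes were higher across several classes. Of 29 tested hydrolases and lumenal proteins 16 were higher and none lower (median 0.24), with Ctso (0.77 ± 0.08), the growth factor precursor Grn (0.58 ± 0.05), cathepsin D (Ctsd, 0.46 ± 0.05) and the saposin precursor Psap (0.45 ± 0.05) among them. Psap was at 425.9, 416.4 and 439.3 CPM in controls and 583.3, 577.6 and 590.5 CPM after sildenafil, a gap several times the spread within either group. Of 17 tested subunits of the vacuolar proton pump, which acidifies the lysosome, 11 were higher and none lower (median 0.24), and 7 without sildenafil 3. The membrane subunits Atp6v0b and Atp6v0d1 led with 0.53 ± 0.07 and 0.46 ± 0.05. Of 27 autophagy genes 10 were higher and none lower (median 0.10), among them the ATG8 family members Map1lc3b (0.43 ± 0.05), Gabarap (0.49 ± 0.06) and Gabarapl1 (0.36 ± 0.05). Of 12 tested MiT/TFE factors and targets 4 were higher, led by the lysosomal glycoprotein Gpnmb, at 502.8, 521.0 and 547.1 CPM in controls and 762.2, 788.3 and 809.1 CPM after sildenafil (0.59 ± 0.05). Sphingolipid genes followed the same direction, with 16 of 26 tested higher and 2 lower (median 0.27): Sptlc1, a subunit of the first enzyme of the pathway, rose by 0.67 ± 0.06 and Degs1, which makes ceramide, by 0.56 ± 0.05.

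**Figure D3:**
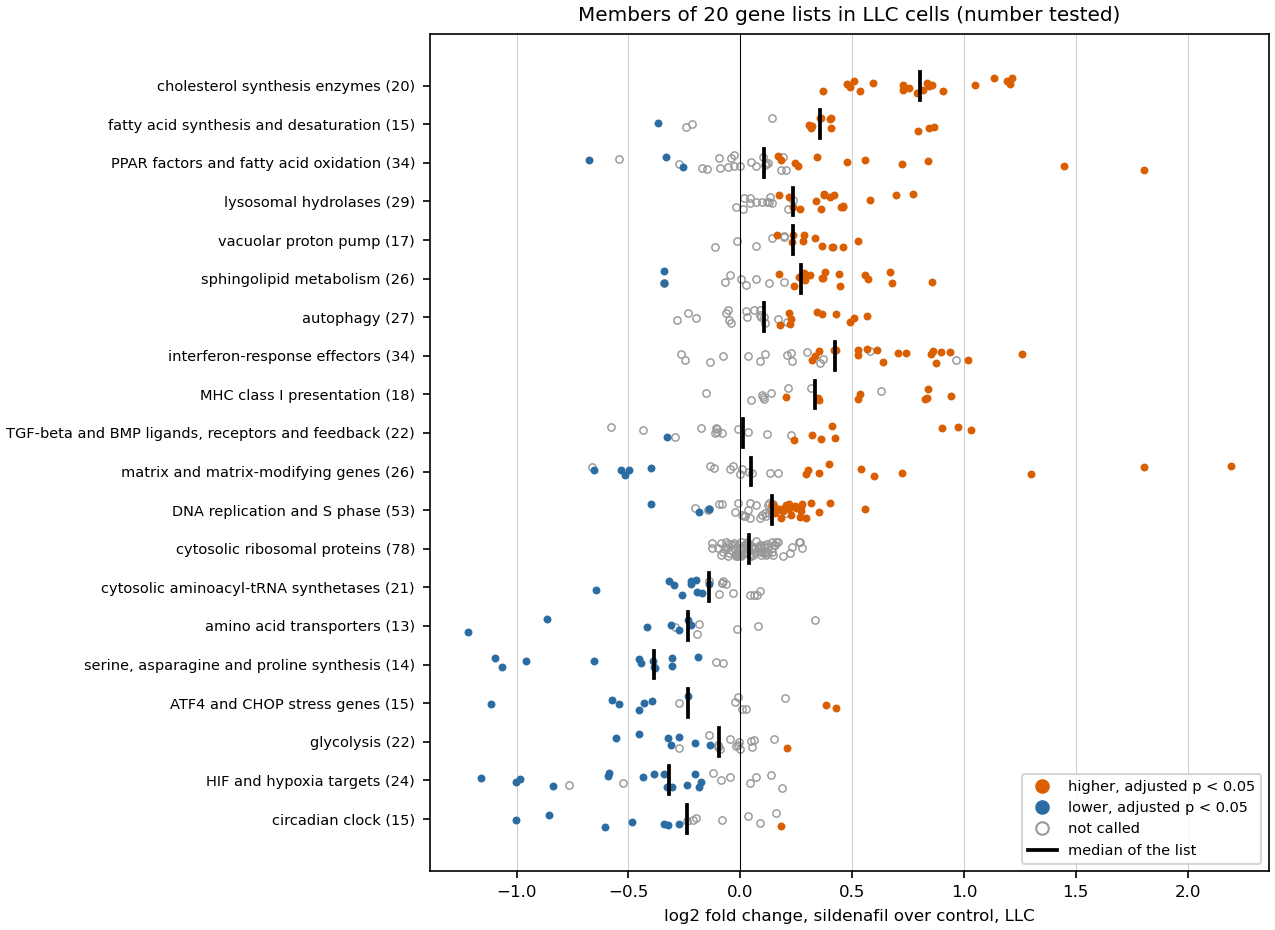
Log2 fold change of each tested member of 20 gene lists in LLC cells, sildenafil over control, with the number tested in parentheses. Orange points were called higher, blue points lower and open points were not called, and the black bar is the median, which ran from 0.80 for the cholesterol enzymes to -0.39 for serine, asparagine and proline synthesis.

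The transcript of the drug target, Pde5a (chr3:122728947-122859374), was low and level: 4.25, 3.89 and 4.10 CPM in controls and 4.10, 4.18 and 4.32 CPM after sildenafil, with overlapping groups (0.04 ± 0.11, adjusted p = 0.802). Of 11 tested phosphodiesterases 2 were higher and 1 lower, near the shares over all genes tested (15.1% and 12.2%). Pde4b (chr4:102087543-102607259), which breaks down cyclic AMP, went from 18.3, 16.3 and 17.2 CPM to 40.2, 47.6 and 45.9 CPM (1.37 ± 0.08, adjusted p = 5.00e-06). Pde8b, also specific for cyclic AMP, rose by 0.91 ± 0.13, and Pde2a, which cyclic GMP activates, fell from 35.4, 29.3 and 31.9 CPM to 23.9, 19.97 and 20.7 CPM (-0.58 ± 0.09). Of 20 tested cyclases, kinases and exporters 4 were higher and 1 lower. Prkg2, which encodes protein kinase G type II, fell from 145.0, 136.7 and 136.9 CPM to 92.7, 90.6 and 102.5 CPM (-0.55 ± 0.06, adjusted p = 0.000164), while Prkg1 had no count in any library. Adcy7, an adenylate cyclase, rose from 97.2, 96.9 and 95.7 CPM to 130.1, 140.0 and 136.1 CPM (0.49 ± 0.04). The cyclic nucleotide exporter Abcc4 was not called (0.01 ± 0.08, adjusted p = 0.960). Of 17 tested CREB targets 6 were higher and 3 lower: Nr4a2 (0.70 ± 0.13), Fosl2 (0.57 ± 0.05) and Sik1 (0.51 ± 0.07) rose, whereas the related receptor gene Nr4a1 (-0.73 ± 0.12) and Atf3 (-0.73 ± 0.15) fell.

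Genes that supply amino acids to the cell were lower. Of 14 tested genes of serine, asparagine and proline synthesis 12 were lower and none higher (median -0.39). Pycr1 (chr11:120635712-120643769), the last enzyme of proline synthesis, went from 18.9, 15.6 and 14.4 CPM to 9.13, 7.67 and 6.58 CPM (-1.06 ± 0.14, adjusted p = 0.000947). Cth, which makes cysteine from cystathionine, went from 16.3, 12.99 and 13.1 CPM to 7.25, 5.53 and 7.01 CPM (-1.10 ± 0.13). Aldh1l2, a mitochondrial folate enzyme, fell from 128.2, 119.4 and 113.5 CPM to 65.5, 60.2 and 60.1 CPM (-0.96 ± 0.06, adjusted p = 7.30e-06). In all of these the lowest control exceeded the highest sildenafil library. For Pycr1 and Cth this was a condition of being named among the largest falls. Phgdh, the first enzyme of serine synthesis and the most abundant member, had the smallest fall among the 12 called (-0.19 ± 0.05) and lost its call when control 1 or any sildenafil library was left out. Of 13 tested amino acid transporters 7 were lower and none higher (median -0.23), led by Slc7a3 and by the cystine importer Slc7a11, which went from 96.0, 89.6 and 86.4 CPM to 51.3, 48.0 and 50.4 CPM (-0.86 ± 0.05). Of 21 cytosolic aminoacyl-tRNA synthetases, which charge tRNAs, 10 were lower and none higher (median -0.14), but 6 without sildenafil 2 and 5 without sildenafil 3. Gars fell by 0.32 and Eprs by 0.30.

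Stress genes downstream of the transcription factors ATF4 and CHOP, which drive much of the amino acid supply program, were divided. Of 15 tested 7 were lower and 2 higher (median -0.23), with 3 lower without sildenafil 2 and 4 without sildenafil 3. Ddit3, which encodes CHOP, fell from 95.7, 82.6 and 82.5 CPM to 62.3, 57.6 and 55.2 CPM (-0.58 ± 0.07, adjusted p = 0.000446). Trib3, a pseudokinase induced by CHOP, was at 180.5, 133.6 and 127.4 CPM in controls and 80.7, 63.7 and 59.6 CPM after sildenafil (-1.11 ± 0.19, adjusted p = 0.0127). Nupr1 (0.38 ± 0.05) and Ddit4 (0.43 ± 0.07) were higher. The transcript of Atf4 itself, whose protein is set mainly by translation, was at 593.3, 557.5 and 605.5 CPM in controls and 561.3, 581.1 and 583.8 CPM after sildenafil (-0.02 ± 0.05, adjusted p = 0.743). Of 22 tested chaperones and sensors of the endoplasmic reticulum stress response 4 were higher and 2 lower (median 0.03).

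The letters TGATGNAA, the core of the element that ATF4 binds with a C/EBP partner, were sought on both strands in the same windows and occurred in 3.91% of genes. They were found in 3 of 13 synthesis genes with a window (Asns, Got1 and Pycr1), 1 of 10 transporters (Slc7a11), 3 of 13 synthetases (Gars, Aars and Tars) and 5 of 17 ATF4 and CHOP genes (Chac1, Herpud1, Jdp2, Nupr1 and Fgf21). Of these 12 genes, 7 were lower (Asns -0.30, Got1 -0.39, Pycr1 -1.06, Slc7a11 -0.86, Gars -0.32, Chac1 -0.40, Herpud1 -0.23), Nupr1 was higher, Aars, Tars and Jdp2 were not called and Fgf21 was too low to be tested. The call of Chac1 was lost without sildenafil 2 or sildenafil 3, and that of Herpud1 without control 1 or any sildenafil library. Genes with a window were also counted with or without the letters. Lower were 10 of 13 synthesis genes, 4 of 10 transporters, 5 of 13 synthetases and 7 of 17 ATF4 and CHOP genes. Of the last, 2 were higher, and no gene of the other lists was. Matches in 4 genes that fell and in Nupr1, which rose, are set side by side, on the strand of the gene and with the match in capitals, which may read on either strand. Slc7a11 holds another match, left in lower case.
Asns, chr6:7693210-7693262, minus strand: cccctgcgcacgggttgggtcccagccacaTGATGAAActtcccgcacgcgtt
Pycr1, chr11:120643814-120643881, minus strand: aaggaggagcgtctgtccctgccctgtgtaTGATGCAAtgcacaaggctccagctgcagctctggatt
Slc7a11, chr3:50443642-50443709, minus strand: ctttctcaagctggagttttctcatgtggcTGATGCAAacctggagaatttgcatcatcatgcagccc
Chac1, chr2:119351019-119351086, plus strand: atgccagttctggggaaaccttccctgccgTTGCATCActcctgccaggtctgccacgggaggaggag
Nupr1, chr7:126625543-126625610, minus strand: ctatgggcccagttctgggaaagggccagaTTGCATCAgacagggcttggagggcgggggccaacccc

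Most listed hypoxia genes were lower in LLC. The list holds targets of HIF, the transcription factor stabilised when oxygen is short. Of its 24 tested members 15 were lower and none higher (median -0.32). Ero1l (chr14:45283087-45318771), an oxidase of protein disulfide bonds, went from 342.5, 381.6 and 358.5 CPM to 173.5, 185.0 and 189.2 CPM (-0.98 ± 0.06, adjusted p = 5.35e-06). Bnip3, a mitophagy receptor looked up after its value was seen, went from 177.1, 189.5 and 220.2 CPM to 113.3, 138.0 and 139.2 CPM (-0.59 ± 0.11). Egln3, a prolyl hydroxylase that marks HIF for destruction, went from 182.3, 180.1 and 156.9 CPM to 118.3, 113.5 and 112.4 CPM (-0.59 ± 0.06). In each of these genes all 3 sildenafil libraries lay under all 3 controls. The carbonic anhydrase Car12 (-1.002 ± 0.11), Ankrd37 (-1.16 ± 0.15) and Pdk1, which keeps pyruvate out of the mitochondrion (-0.39 ± 0.05), were also lower. Of 22 tested glycolysis genes 7 were lower and 1 higher (median -0.09). The glucose transporter Slc2a1 fell from 123.0, 123.1 and 105.0 CPM to 78.3, 80.6 and 80.1 CPM (-0.55 ± 0.06) and the phosphofructokinase Pfkp by 0.45, while the lactate transporter Slc16a1 was the member that rose.

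Interferon-response genes were higher. Of 49 listed effectors 34 could be tested, 19 were higher and none lower (median 0.42). Some were at low levels: under a filter of at least 5 CPM in 3 libraries 12 were called. Irf1, a transcription factor of the response, went from 14.0, 15.4 and 17.3 CPM to 28.6, 30.5 and 30.2 CPM (0.94 ± 0.08). Parp9 rose by 0.87 ± 0.10, Ifi27 by 0.61 ± 0.06 and Ifi35 by 0.53 ± 0.06. Isg15, an antiviral ubiquitin-like protein, stayed under 2 CPM, at 0.794, 0.973 and 0.683 CPM in controls and 1.27, 1.69 and 1.45 CPM after sildenafil (0.85 ± 0.22). Of 18 tested genes of MHC class I presentation 9 were higher and none lower (median 0.33). The peptide loading genes Tap2 and Tapbp rose by 0.84 ± 0.05 and 0.84 ± 0.06 and the proteasome activators Psme2 and Psme1 by 0.53 ± 0.05 and 0.35 ± 0.05. The heavy chain gene H2-D1 went from 114.8, 112.3 and 128.6 CPM to 157.2, 151.1 and 145.3 CPM (0.35 ± 0.06), while H2-K1 was low and not called (0.14 ± 0.09, adjusted p = 0.277), and neither was Cd274, which encodes PD-L1 (0.05 ± 0.16, adjusted p = 0.842).

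The letters GAAA, any 2 bases and GAAA again, the core that interferon-activated transcription factors bind, occurred on either strand in 3.46% of all windows counted by gene and in 17 of the 35 listed interferon genes with a window. Of these 17 genes 6 were higher (Gbp2, Gbp7, Ifit3, Igtp, Irgm1 and Isg15), none was lower, 6 were not called and 5 were not tested. Of all 35 genes with a window, with or without the letters, 14 were higher, none lower, 13 not called and 8 not tested. Matches overlap one another in some promoters, such as that of Irgm1. Calls of 3 of the 6 were lost when single libraries were left out: Ifit3 without any library but control 3, Igtp without control 1, sildenafil 1 or sildenafil 2, and Isg15 without control 1, sildenafil 2 or sildenafil 3. The first match is shown for the other 3, on the strand of the gene and in capitals, which may read on either strand. Gbp2, a guanylate-binding protein, was at 0.414, 0.524 and 0.813 CPM in controls and at 1.40, 1.52 and 1.33 CPM after sildenafil (1.26 ± 0.26), and all 6 genes had their sildenafil libraries above their controls, at low levels.
Gbp2, chr3:142620574-142620643, plus strand: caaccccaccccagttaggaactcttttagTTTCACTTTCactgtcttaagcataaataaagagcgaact
Gbp7, chr3:142530253-142530322, plus strand: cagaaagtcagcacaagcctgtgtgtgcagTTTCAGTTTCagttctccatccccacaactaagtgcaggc
Irgm1, chr11:48871421-48871480, minus strand: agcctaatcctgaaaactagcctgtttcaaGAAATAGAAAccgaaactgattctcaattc

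Of 28 listed chemokines and cytokines only 9 reached the level needed for testing, of which 5 were higher and none lower. The macrophage growth factor gene Csf1 rose by 0.30 ± 0.07, a call lost without control 1, sildenafil 2 or sildenafil 3. Ccl2, which attracts monocytes, went from 6.42, 5.73 and 6.83 CPM to 11.6, 10.8 and 11.3 CPM (0.83 ± 0.09). Cxcl1, which attracts neutrophils, went from 0.621, 0.561 and 0.683 CPM to 2.60, 2.83 and 2.44 CPM (2.06 ± 0.18). Ccl9 and Ccl7 rose from under 0.5 CPM by 2.38 ± 0.35 and 2.73 ± 0.52. Nfkbia, the NF-kB inhibitor that NF-kB itself induces, went from 21.6, 20.7 and 25.6 CPM to 34.3, 39.3 and 42.5 CPM (0.77 ± 0.10), and 5 of 19 tested genes of its list were higher and 1 lower. The summed level of 14 leukocyte markers was 2.69 to 3.29 CPM in controls and 4.79 to 5.67 CPM after sildenafil. Lyz2 was the member called higher (1.16 ± 0.15), Cd68 was not called, and the pan-leukocyte gene Ptprc averaged 0.0108 and 0.0114 CPM.

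Matrix genes changed in both directions. Of 26 tested matrix genes 10 were higher and 5 lower (median 0.05), and of 16 tested collagens 5 were higher and 2 lower. Spp1, which encodes the secreted phosphoprotein osteopontin, was the most abundant of the matrix genes, at 1775, 1713 and 1896 CPM in controls and 2306, 2287 and 2276 CPM after sildenafil (0.35 ± 0.06, adjusted p = 0.00224). Col3a1, a fibrillar collagen, was at 1051, 1087 and 1048 CPM in controls and 2010, 2004 and 2012 CPM after sildenafil (0.92 ± 0.05, adjusted p = 5.00e-06). Vcan went from 83.5, 81.2 and 67.5 CPM to 190.6, 186.2 and 194.5 CPM (1.2995 ± 0.08). Col6a1 rose by 0.88 ± 0.05, the membrane protease Mmp14 by 0.60 ± 0.05, and Mmp3 from under 1 CPM by 2.19 ± 0.23. The basement membrane collagen Col4a2 went from 347.4, 347.5 and 292.4 CPM to 221.3, 193.6 and 195.4 CPM (-0.69 ± 0.08). Col4a1 fell by 0.49 and the laminins Lamc1, Lama5 and Lamb1 by 0.52, 0.50 and 0.40. Itga6, a laminin receptor subunit, went from 192.4, 203.6 and 182.3 CPM to 113.3, 106.2 and 108.8 CPM (-0.82 ± 0.05, adjusted p = 8.97e-06). Itgb5, a subunit of a vitronectin receptor, rose by 0.54 ± 0.04. Of 23 tested integrins and adhesion receptors 7 were higher and 5 lower.

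Of 9 fibroblast markers 3 were tested and all 3 were higher: Col3a1, Pdgfra, from 62.7, 63.1 and 57.0 CPM to 132.3, 123.1 and 127.6 CPM (1.07 ± 0.05), and Pdgfrb (0.83 ± 0.10). The summed level of the 9 was 1116 to 1163 CPM in controls and 2150 to 2167 CPM after sildenafil. The other fibroblast markers were at or near 0, with Col1a2 the highest at 0.161 and 0.197 CPM, Col1a1 at 0.0115 and 0.0206 CPM and Dcn at 0 and 0.0103 CPM. In bulk RNA, more cells of a type and more RNA per cell cannot be told apart. The fibronectin gene Fn1 overlapped between groups (0.04 ± 0.20, adjusted p = 0.906), and of 13 tested epithelial and mesenchymal identity genes 1 was higher and 2 lower. None of 8 endothelial markers could be tested.

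Among TGF-beta and BMP genes 8 of 22 tested were higher and 1 lower (median 0.01). The 3 Id genes, which BMP signals induce and which block differentiation factors, made up the largest rises: Id1 went from 6.66, 5.31 and 6.73 CPM to 11.7, 12.5 and 12.6 CPM (0.97 ± 0.10), Id2 rose by 1.03 ± 0.14 and Id3 by 0.90 ± 0.09. The receptor gene Bmpr1a rose by 0.36 ± 0.05 and Smad3 by 0.42 ± 0.04. Of 12 tested WNT, Notch and Hedgehog targets 1 was higher and 4 lower (median -0.27). The Hedgehog target Gli1 was at 3.797, 3.29 and 3.32 CPM in controls and 1.51, 1.83 and 1.61 CPM after sildenafil (-1.07 ± 0.15), and the receptor Ptch1 had a log2 fold change of -0.89 ± 0.10. The WNT genes Lef1 (-0.65 ± 0.17) and Znrf3 (-0.38 ± 0.11) were the other two that were lower, and both calls were lost without control 1, sildenafil 2 or sildenafil 3, that of Znrf3 also without control 2. Notch1, the member that was higher, went from 7.11, 7.97 and 5.99 CPM to 13.7, 12.6 and 12.6 CPM (0.89 ± 0.11). Of 18 tested YAP and TEAD targets 2 were higher and 4 lower, with Amotl2 at 0.66 ± 0.07 and Ankrd1 at -0.65 ± 0.13.

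Cell cycle genes moved little. Of 53 DNA replication and S phase genes 24 were higher and 3 lower (median 0.14), and the count of higher genes was 12 without control 1, 15 without control 2, 11 without sildenafil 2 and 9 without sildenafil 3. Cdc6, which loads the replicative helicase, went from 51.9, 54.8 and 56.7 CPM to 69.1, 72.9 and 73.7 CPM (0.40 ± 0.05, adjusted p = 0.000573). Gins3, a helicase subunit, rose by 0.56 ± 0.10 and Uhrf1 by 0.27 ± 0.05. Of 30 mitosis genes 1 was higher and 6 lower (median -0.03). Ccnd1, the cyclin of the G1 phase, went from 803.7, 855.6 and 863.3 CPM to 1005, 1015 and 1026 CPM (0.27 ± 0.05), and Cdkn1a, the p21 inhibitor, from 12.4, 10.96 and 8.85 CPM to 5.23, 5.25 and 5.09 CPM (-1.05 ± 0.13). Myc was at 416.5, 383.1 and 318.7 CPM in controls and 273.1, 248.4 and 266.5 CPM after sildenafil (-0.51 ± 0.09, adjusted p = 0.00668), and of the 30 tested genes of MYC and ribosome biogenesis 7 were lower and 1 higher (median -0.04). The 78 tested cytosolic ribosomal protein genes had a median of 0.04. Of 13 tested BCL2 family genes 2 were higher: Bmf, and Bad (0.49 ± 0.14), whose call was lost when control 1 or any sildenafil library was left out.

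Several clock genes were lower at this single time point. Of 15 tested 7 were lower and 1 higher (median -0.24). Cry1 (chr10:85131700-85185064), a repressor of the circadian loop, went from 14.2, 14.9 and 14.5 CPM to 6.94, 7.08 and 7.72 CPM (-1.0005 ± 0.08, adjusted p = 3.40e-05). Per2, its partner, went from 5.66, 5.65 and 5.89 CPM to 3.66, 3.11 and 2.75 CPM (-0.86 ± 0.13), and Nfil3 fell by 0.60. For all 3 genes the groups were apart. Of 74 nuclear oxidative phosphorylation genes 12 were higher and 2 lower (median 0.10), where 15.1% of all genes tested were higher and 12.2% lower.

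Fitted to all 18 libraries, the response of LLC differed from that of MC38 in 3576 of 16040 genes (22.3%), more positive in LLC in 12.6% and more negative in 9.68%, and from that of 4T1 in 6739 genes (42%), more positive in 21.8% and more negative in 20.2%. LLC was treated for 48 hours and the other lines for 24, so line and duration cannot be told apart, and 4T1 also had another medium and other library makeup. Of the 20 cholesterol enzymes 16 had a more negative response in LLC than in MC38 and 2 a more positive one. The median rise was 0.80 in LLC, 1.67 in MC38 and 1.99 in 4T1. For Hmgcs1 the responses in this fit were 1.15, 2.75 and 2.74, and the difference LLC minus MC38 was -1.60 ± 0.07 (adjusted p = 7.63e-13). Abca1 fell in MC38, from 62.4 to 72.2 CPM in controls to 19.5 to 21.7 CPM, and rose in LLC, a difference of 2.86 ± 0.12 (adjusted p = 1.97e-13).

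Stress and hypoxia genes also differed between these lines. Of 15 ATF4 and CHOP genes 12 had a more negative response in LLC and none a more positive one, with a median of -0.23 in LLC and 0.68 in MC38. Ddit3 rose in MC38 from 9.02, 10.5 and 9.22 CPM to 25.7, 26.2 and 24.3 CPM, and the difference LLC minus MC38 was -1.96 ± 0.09 (adjusted p = 7.63e-13). Of 24 HIF targets 15 were more negative in LLC and 1 more positive, with Ero1l at a difference of -1.36 ± 0.07 (adjusted p = 8.97e-12). Of 15 clock genes 8 were more negative and none more positive, with Cry1 at -1.02 ± 0.09 (adjusted p = 2.26e-08). In the other direction, 25 of 53 replication genes and 44 of 78 ribosomal protein genes were more positive in LLC, and none was more negative. Cdc6 differed by 0.43 ± 0.06 (adjusted p = 3.88e-05) and Tgfbi by 2.03 ± 0.10 (adjusted p = 1.11e-12), with Tgfbi at 13.4 to 13.8 CPM in MC38 controls and 11.3 to 12.5 CPM after sildenafil.

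**Figure D4:**
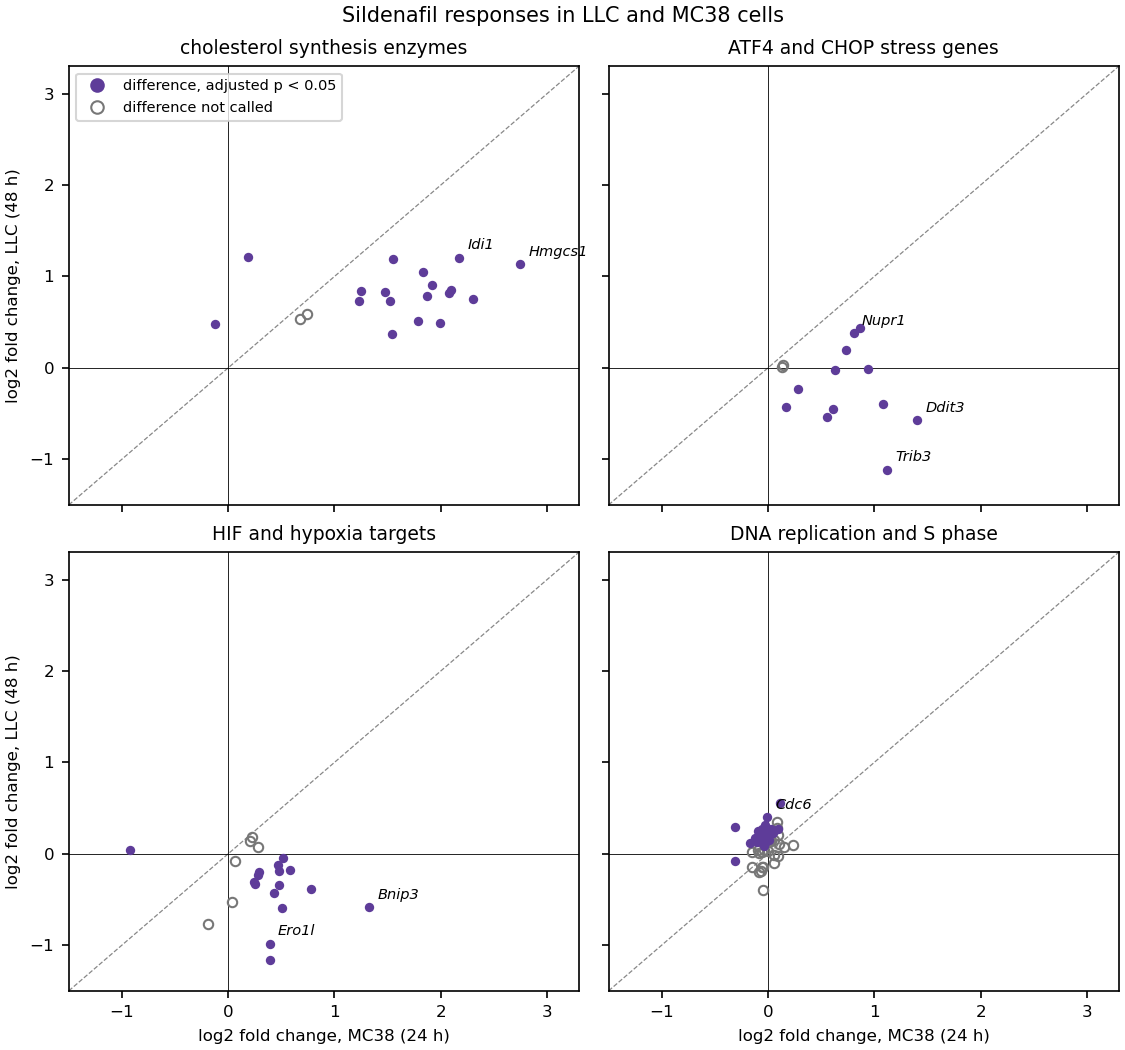
Log2 fold change in LLC at 48 hours against that in MC38 at 24 hours for members of 4 gene lists, each point a gene and the dashed line equality. Filled points passed the test of the difference. Drawn or not, 18 of 20 cholesterol enzymes, 12 of 15 ATF4 and CHOP genes, 16 of 24 HIF targets and 25 of 53 replication genes passed it. Only genes also tested in MC38 alone are drawn, 14 of the ATF4 and CHOP genes and 22 of the HIF targets.

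Calls in LLC varied with gene length. Protein-coding genes were grouped by their length outside exons, the part present in unspliced RNA only. The share called lower was 4.79% of 794 genes with up to 1000 bases and rose through every group to 22.4% of 205 genes with over 300000 bases, while the share called higher was 16.0% and 10.2% in these groups. The median log2 fold change was 0.07 in the shortest and -0.11 in the longest group. The 15 largest falls had a median span of 12944 bases, the 15 largest rises 35383 bases and all 11474 protein-coding genes tested 23927 bases. In each set of 15 there were 3 genes over 100000 bases, against 1386 of all protein-coding genes, and Tenm4, which headed the falls, spans 739848 bases. The levels of Gm26917, Polr2a and Neat1 given above also differed between libraries, and their part in these length differences was not tested.

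**Figure D5:**
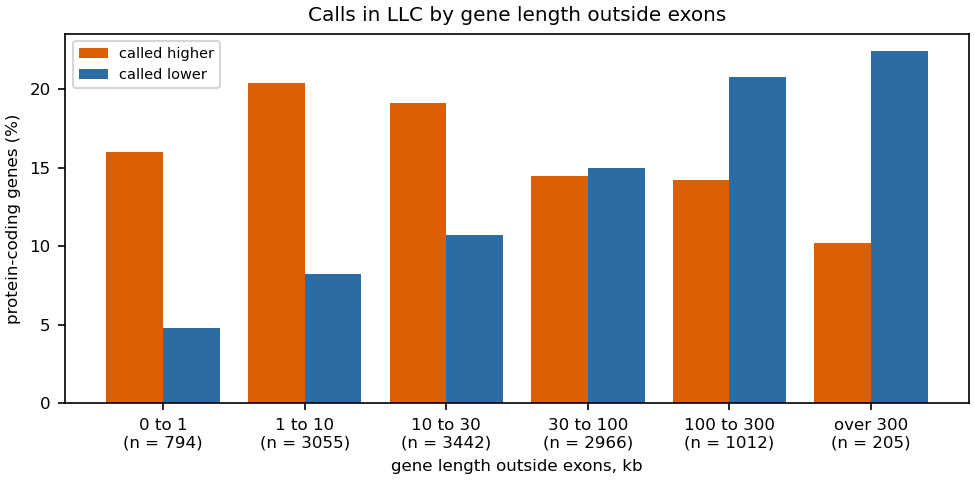
Percent of tested protein-coding genes called higher (orange) and lower (blue) in LLC after sildenafil, by gene length outside exons in kilobases, with the number of genes under each group. The share called lower goes from 4.79% to 22.4% across the groups.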

How the data were processed

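RNA was sequenced from LLC, MC38 and 4T1 cells, 3 libraries per group. The authors deposited expected counts, estimated by RSEM 1.3.1 from reads aligned to mm10 by STAR 2.7.0f, with cutadapt 1.18 and bcl2fastq 2.17 also listed, per the submitters' processing notes. For the annotation release and the strand setting, the sources used here give nothing. Antisense and overlapping genes may therefore share reads, and RSEM divides reads between near-identical genes. All 55450 identifiers matched GENCODE M21 (GRCm38), the source of positions and gene types. Promoter windows and their letters come from RefSeq (GRCm38.p6).

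Counts were rounded and tested with edgeR 4.0.16 in R 4.3.3: TMM scaling, filterByExpr, and a quasi-likelihood fit with robust dispersion, leaving 4 residual degrees of freedom. P-values were adjusted by Benjamini-Hochberg over all genes tested (threshold 0.05). SE is the size of the log2 fold change divided by the square root of F. Differences between lines were fitted on all 18 libraries with 1 coefficient per group. Fits were tested on simulated data, where wrong calls exceeded the nominal rate.

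The rule named the 15 largest rises and falls (called genes without overlap averaging 5 CPM or more), the 5 members of each of 52 lists with the smallest adjusted p, members over 500 CPM and a set of fixed genes. The largest rises and falls left out Gm, Rik and clone-style symbols, by a pattern that also covers C followed by digits alone. Other genes were named after their values were seen or for a printed motif match. The members and lists were chosen with earlier results of these data known. Some genes that the rule names are not reported here, and not every list is given in the text. Alternatives used DESeq2 1.42.0, limma 3.58.1 (voom), RLE factors, library totals, factors from coding genes, coding genes alone, other filters, unrounded counts, a replicate block, all 18 libraries, Gm26917 as a covariate, a threshold of 0.01 and each library left out. Plots were drawn with matplotlib 3.10.9.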

Additional observations from a re-analysis of the deposited data

Results flagged for a closer look

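For 7 genes described above the sildenafil response in LLC differed from that in MC38 by a test of the difference itself (edgeR on all 18 libraries), given as LLC minus MC38 on the log2 scale. The difference was -1.60 for Hmgcs1, 2.86 for Abca1, -1.96 for Ddit3, -1.36 for Ero1l, -1.02 for Cry1, 0.43 for Cdc6 and 2.03 for Tgfbi. These genes were chosen with earlier results of these data known. Groups of 3 libraries are too small for a test of single outlying libraries.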

How the results depend on the processing

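No call changed sign under any alternative. The counts of genes higher and lower went from 2046 and 1656 to 3097 and 2291 with all 18 libraries in 1 fit, 1321 and 958 with the Gm26917 level as a covariate, which shares 0.464 of its variance with treatment, and 1067 and 658 at an adjusted p under 0.01. Leaving out each library gave 1127 to 3079 higher and 714 to 2915 lower. DESeq2 called 1702 and 1607. With the covariate, 6 proton pump subunits, 8 S phase genes and 3 ATF4 and CHOP genes kept the direction given above as called. At an adjusted p under 0.01, 6 tRNA synthetases, 3 ATF4 and CHOP genes and 9 S phase genes did. A filter of 5 CPM in 3 libraries left 12 interferon genes. Leaving out each library gave 7 to 14 proton pump subunits, 5 to 11 tRNA synthetases, 3 to 7 ATF4 and CHOP genes and 9 to 34 S phase genes. Counts were followed for a chosen set of lists and directions only. Within that set, the counts of the other lists stayed within 1.5 times those reported. So did the 3576 and 6739 genes whose response differed from MC38 and 4T1. Counts not followed could move further, such as the 3 lower sterol sensor and uptake genes, each lost without sildenafil 2 or sildenafil 3. Libraries with the same replicate number deviated together weakly and unevenly (r = 0.229, -0.104 and 0.139), and pairs with unlike numbers gave -0.264 to 0.146. The numbers were therefore not taken to pair the libraries. With a replicate block, 2114 genes were higher and 1964 lower, and no followed list or difference count moved by over 1.5 times.

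Limits: 3 libraries per group and 1 time point per line, with line and duration not separable. By chi-square of counts, control 3 was nearer to every sildenafil library than to the other controls. By correlation of log2 CPM it was slightly nearer to the other controls, and its label was not tested. The depth leaves genes under about 1 CPM imprecise.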
